A study of Rattus norvegicus with 10 samples.

Results

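Cyclic AMP and cyclic GMP are intracellular messengers, and the genes described here make them, break them down or respond to them. They are the genes whose platform symbol names an adenylyl cyclase (Adcy), a phosphodiesterase (Pde), a catalytic (Prkac) or regulatory (Prkar) subunit of protein kinase A (PKA), or a guanylyl cyclase (Gucy). Adcy5 and Pde10a, which striatal projection neurons express strongly, were left out of the set and are given beside it. The rule found 45 genes among 14217 with a single symbol, each represented by its probe set of highest mean over the arrays. Of these, 24 passed the filter on low values, a mean of at least 3.99 on the log2 scale, which kept 50% of all probe sets.

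The tissue was prefrontal cortex from 10 untreated male rats of the inbred Lewis strain, and each rat gave 1 array. The piece comprised frontal areas Fr1 and Fr2 without the olfactory bulb and was taken 6 days after the last of several behaviour tests, in which 40 rats took part. All rats were housed singly and form 1 group, and their age is not given in the labels. The labels give scores for startle, locomotion, sugar feeding and prepulse inhibition in 10 rats and for the plus maze in 7, with no unit stated, and the design text does not name the plus maze among the tests. The series title asks how messenger RNA levels in the brain relate to behaviour within an inbred strain.

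Adenylyl cyclases in the cell membrane turn ATP into cyclic AMP under the control of G proteins, and soluble guanylyl cyclase makes cyclic GMP when it binds nitric oxide. Phosphodiesterases hydrolyse the messengers, some families acting on cyclic AMP, some on cyclic GMP and some on both. Cyclic AMP releases the catalytic subunits of PKA from the regulatory ones, and the kinase then phosphorylates channels, receptors and the transcription factor CREB, which binds the cyclic AMP response element TGACGTCA. In frontal cortex and striatum this pathway carries much of the response to dopamine.

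Promoter windows are shown because CREB, the transcription factor at the end of this pathway, binds such sequences. Adcy9, the gene that varied most here, is among those with a match, and a relation of the match to its variation was not tested. RefSeq windows on the GRCr8 assembly, from 250 bases before to 50 bases after a gene start, were found for 31 of the 45 genes and for 17 of the 24 that passed the filter. The core TGACG, read on both strands and contained in the full element, occurred in 8 of their 28 windows (28.6%), against 21.2% of all 33469 windows in the table. The 8 windows belonged to 6 of the 17 genes. Because 6 of the 17 genes have several windows, the windows are not independent. The full element TGACGTCA occurred in 0 of the 28, against 1.83% of all windows. A match is a description of the letters and not a binding site. Printed here are the 4 genes with 1 listed start and a match, with TGACG, or CGTCA where the match is on the opposite strand, in capitals. The windows lie at chr10:11645595-11645894 (plus strand) for Adcy9, chr1:144575219-144575518 (plus strand) for Pde8a, chr19:41083140-41083439 (minus strand) for Prkaca and chr2:238386266-238386565 (minus strand) for Prkacb.
Adcy9: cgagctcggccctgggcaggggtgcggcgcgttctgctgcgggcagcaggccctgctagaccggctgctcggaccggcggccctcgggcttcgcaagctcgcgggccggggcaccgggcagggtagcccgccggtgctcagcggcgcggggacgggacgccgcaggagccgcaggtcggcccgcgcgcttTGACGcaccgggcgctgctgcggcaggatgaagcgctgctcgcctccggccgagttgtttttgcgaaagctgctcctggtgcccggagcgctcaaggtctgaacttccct
Pde8a: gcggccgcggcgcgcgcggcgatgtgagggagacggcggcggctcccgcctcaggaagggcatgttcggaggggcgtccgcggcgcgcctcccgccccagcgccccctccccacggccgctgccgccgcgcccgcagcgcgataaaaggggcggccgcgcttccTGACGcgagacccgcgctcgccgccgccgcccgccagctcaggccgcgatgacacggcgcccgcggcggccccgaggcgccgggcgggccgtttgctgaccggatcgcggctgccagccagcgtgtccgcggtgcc
Prkaca: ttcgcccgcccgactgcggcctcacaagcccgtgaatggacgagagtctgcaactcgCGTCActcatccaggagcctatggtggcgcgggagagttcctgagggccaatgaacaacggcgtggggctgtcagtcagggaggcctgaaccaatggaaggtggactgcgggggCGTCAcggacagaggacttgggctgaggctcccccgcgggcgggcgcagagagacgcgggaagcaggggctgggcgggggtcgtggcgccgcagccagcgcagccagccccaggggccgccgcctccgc
Prkacb: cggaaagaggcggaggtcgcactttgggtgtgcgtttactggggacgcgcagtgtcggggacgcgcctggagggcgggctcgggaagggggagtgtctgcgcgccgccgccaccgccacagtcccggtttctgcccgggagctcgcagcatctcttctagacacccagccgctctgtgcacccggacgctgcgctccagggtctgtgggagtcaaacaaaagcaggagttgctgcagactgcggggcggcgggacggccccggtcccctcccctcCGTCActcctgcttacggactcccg
Prkaca, which encodes the alpha catalytic subunit of PKA, held the core 2 times and the other 3 windows held it 1 time each.

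Some arrays stood apart. Markers of striatal projection neurons were highest in rats 7, 4 and 10, with list scores (each marker's log2 values centred on 0 and averaged over the list) of 1.49, 0.99 and 0.54, against -0.69 to 0.09 in the other rats. Of 16 such markers on the array 10 passed the filter. Of the others Adora2a ran from 2.09 to 6.48 log2, and Adora2a, Tac1 and Syndig1l were highest in rats 7 and 4. Six3, Isl1 and Ebf1 showed no such rise, with highest values of 3.14, 2.78 and 2.66. Slc17a7, Neurod6, Tbr1 and Cux2, markers of cortical excitatory neurons, all passed the filter. Their list score was lowest in rat 7 at -0.35 and highest in rat 6 at 0.18. Neurod6 and Tbr1 were lowest in rat 7, but Slc17a7 and Cux2 in rat 1. Tbr1 was at 6.63 log2 in rat 7, against a median of 7.63. Rat 2 held the highest value of 9 of the 24 genes (37.5%), against 20.9% of all 8483 genes that passed the filter. After quantile normalization the same counts were 3 of 24 (12.5%) and 7.89%. The labels give no scan or preparation batch.

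The genes that passed the filter differed little between rats, with the exception of Adcy9 and Pde1b. Their SD over the 10 rats had a median of 0.11 log2, against 0.12 for all genes that passed. Only these 2 of the 24 genes spanned more than 2-fold between the lowest and the highest rat, against 4.36% of all genes that passed. Adcy9 lay at the 99.9th and Pde1b at the 98.0th percentile of SD among those genes. The SDs of the other 22 genes ran from 0.06 to 0.19.

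**Figure D1:**
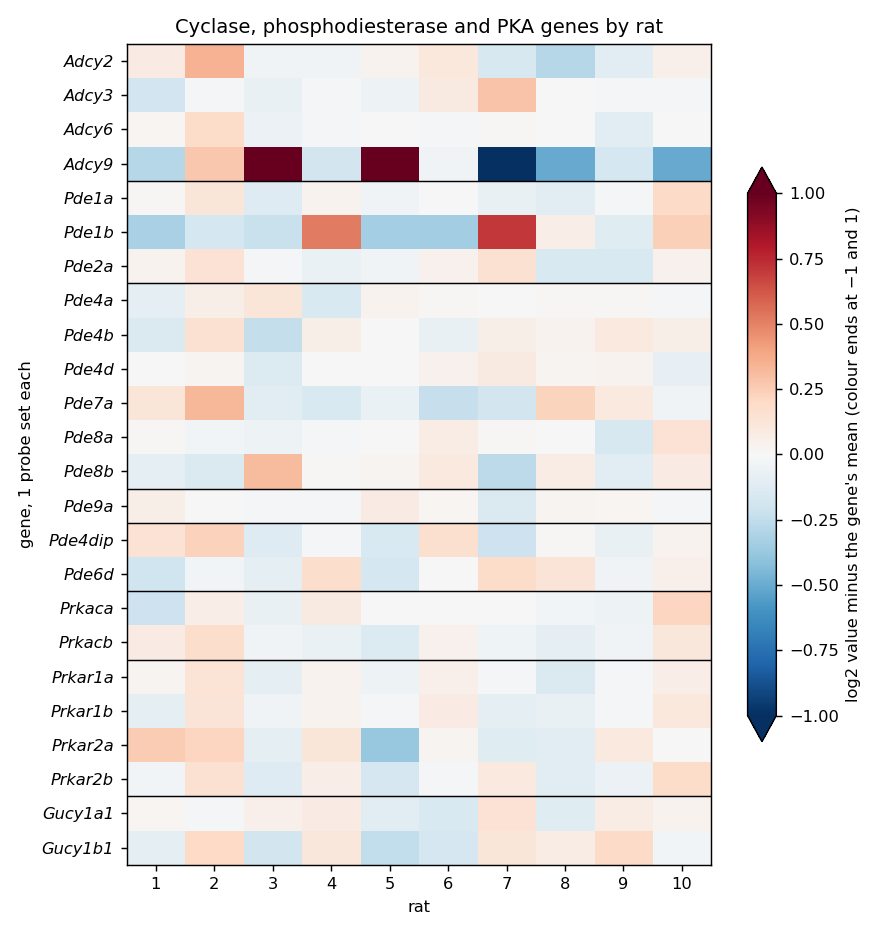
Each cell is the log2 value of a gene in a rat minus that gene's mean over the 10 rats, for the 24 genes that passed the filter, with lines between role groups and the colour scale ending at -1 and 1. Adcy9 and Pde1b stand out, Adcy9 with its highest values in rats 3 and 5 and Pde1b with its highest in rats 7 and 4.

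Among the adenylyl cyclases, Adcy2, Adcy3, Adcy6 and Adcy9 passed the filter, and Adcy4, Adcy8 and Adcy10 did not. Adcy9, a membrane cyclase that responds poorly to forskolin, had a lowest value of 3.11, a median of 4.58 and a highest value of 6.48 log2 (SD 0.96, n = 10). Rats 3 and 5 were highest, at 6.48 and 6.11, the lowest was rat 7, under the filter level, so that no fold is given against it, and the other 7 rats lay between 4.25 and 5.02. Adcy2, a cyclase stimulated by G protein beta-gamma subunits, ran from 10.24 to 10.87 log2 with a median of 10.52, a span of 1.55-fold, and was highest in rat 2. Adcy3, known from olfactory and neuronal cilia, ran from 7.86 to 8.33 with a median of 8.03 and was highest in rat 7. Adcy6, a cyclase inhibited by calcium, ran from 6.96 to 7.26 with a median of 7.07. Among these 4 cyclases, only Adcy9 spanned more than 1.55-fold.

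Of the phosphodiesterases that act on both messengers, Pde1a, Pde1b and Pde2a passed the filter. Pde1b, activated by calcium and calmodulin, was at 10.25, 10.06 and 9.78 log2 in rats 7, 4 and 10, at 9.61 in rat 8, and at 9.19 to 9.42 in the other 6 rats (median 9.39, SD 0.38, n = 10). The span was 2.08-fold, and the 3 rats with the highest striatal scores held its 3 highest values. Its other probe set spanned 2.18-fold, from 7.16 to 8.29, with the highest values in rats 4, 7 and 10. Pde1a, of the same calcium-dependent family, ran from 8.56 to 8.88 with a median of 8.68, and was highest in rat 10. Pde2a, stimulated by cyclic GMP, ran from 11.40 to 11.71 with a median of 11.57.

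The phosphodiesterases specific for cyclic AMP that passed were Pde4a, Pde4b, Pde4d, Pde7a, Pde8a and Pde8b, with SDs of 0.07 to 0.19 log2. Pde4a, Pde4b and Pde4d belong to the family inhibited by rolipram. Pde4d varied least of the 3, from 10.51 to 10.74 with a median of 10.66, and the spans of Pde4a and Pde4b were 1.21-fold and 1.31-fold. Pde7a ran from 5.77 to 6.33 with a median of 5.95, highest in rat 2, and Pde8b from 5.67 to 6.25 with a median of 5.95, highest in rat 3 and lowest in rat 7. Pde8a, at a mean of 4.29, was the gene nearest to the filter level from above. For cyclic GMP only Pde9a passed, the gene of smallest SD in the set (0.06), with values of 7.56 to 7.79 and a median of 7.71.

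The rule also took in genes that do not hydrolyse cyclic nucleotides. Pde4dip, or myomegalin, a scaffold protein of the centrosome and Golgi that binds Pde4d, ran from 10.63 to 11.08 log2 with a median of 10.84. Pde6d, a chaperone of prenylated proteins, ran from 8.57 to 8.94 with a median of 8.75, and its highest values were in rats 7 and 4. Pde12, a mitochondrial exonuclease, did not pass the filter.

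All 6 PKA genes passed the filter, and 5 of them spanned 1.17-fold to 1.34-fold. Prkaca and Prkacb, the catalytic subunit genes, ran from 9.92 to 10.34 log2 (median 10.12) and from 11.54 to 11.86 (median 11.64). Prkar1a and Prkar1b, the type I regulatory subunit genes, spanned 1.21-fold and 1.17-fold, and both were highest in rat 2 and next in rat 10. Prkar2b, the type II regulatory subunit gene of neurons and fat, ran from 10.04 to 10.40 with a median of 10.19. Prkar2a ran from 9.65 to 10.28 with a median of 10.04, a span of 1.55-fold, and was lowest in rat 5 and highest in rat 1. Probe sets of a gene did not always vary alike: for Prkacb, whose main probe set had an SD of 0.10, another had an SD of 0.38, with values of 8.39 in rat 7 and 9.65 in rat 6.

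Of the guanylyl cyclases, Gucy1a1 and Gucy1b1, the alpha and beta subunit genes of the nitric oxide receptor, passed the filter. Gucy1b1 ran from 12.12 to 12.56 log2 with a median of 12.38, and Gucy1a1 from 9.21 to 9.51 with a median of 9.39. The other 7 were below it, among them the genes of membrane receptors such as Gucy2c, the intestinal receptor of guanylin.

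The 21 genes that did not pass had means of at most 3.16 log2, that of Gucy1b2, and a median SD of 0.04. Beside Gucy1b2, they included Pde1c, Pde3a, Pde3b, Pde5a, Pde7b and the photoreceptor genes Pde6a, Pde6b, Pde6g and Pde6h. The lowest of the 10 values was in rat 3 for 15 of the 21 (71.4%) and the highest in rat 7 for 11 (52.4%). The same rats held the lowest and highest value in 67.8% and 46.9% of all 5734 genes under the filter. No difference between rats is therefore read from these genes.

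Pde1b rose with the striatal marker score, and it was the only one of the 24 genes to pass the test. Its slope was 0.35 ± 0.04 log2 per SD of the score (SE, n = 10 rats), a 1.28-fold difference per SD (limma adjusted p = 0.00531 over 15510 probe sets, of which 2.03% passed). The score, made from Drd1, Drd2, Penk, Pdyn, Ppp1r1b, Rgs9, Rarb, Rasd2, Gng7 and Scn4b, contains none of the 45 genes. The other Pde1b probe set had a slope of 0.39 ± 0.05 (limma adjusted p = 0.00531). By p Pde1b ranked at place 8 of 8473 genes. Among bulk tissue pieces a difference in the number of cells of a type cannot be told apart from a difference in RNA per cell. In rats 7, 4 and 10 the myelin score was 0.46, 0.35 and 0.21 and the cortical excitatory score -0.35, 0.10 and 0.12, and the part of the cortical score in the Pde1b result was not tested.

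Adcy5 and Pde10a, the genes set apart, also rose with the score. Adcy5, the main cyclase of striatal neurons, was at 8.35, 7.87 and 7.58 log2 in rats 7, 4 and 10 and at 6.97 to 7.52 in the others, with a slope of 0.38 ± 0.04 (limma adjusted p = 0.00381). Pde10a was at 13.06, 12.53 and 12.32 in those rats and at 11.67 to 12.21 in the others, with a slope of 0.37 ± 0.05 (limma adjusted p = 0.0102). Among 27 other genes of the pathway that passed the filter, of 33 listed, Gnal, the G protein that couples dopamine and adenosine receptors to Adcy5, was the only one to pass, with a slope of 0.33 ± 0.05 (limma adjusted p = 0.0137). Without rat 7 the limma adjusted p was 0.0339 for Adcy5, 0.0798 for Pde10a, 0.101 for Gnal and 0.0435 for Pde1b. Pde10a also missed the threshold with ranks of the score (0.0786) and with the unmoderated Pearson test (0.0616), and Gnal with the Pearson test (0.0668).

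**Figure D2:**
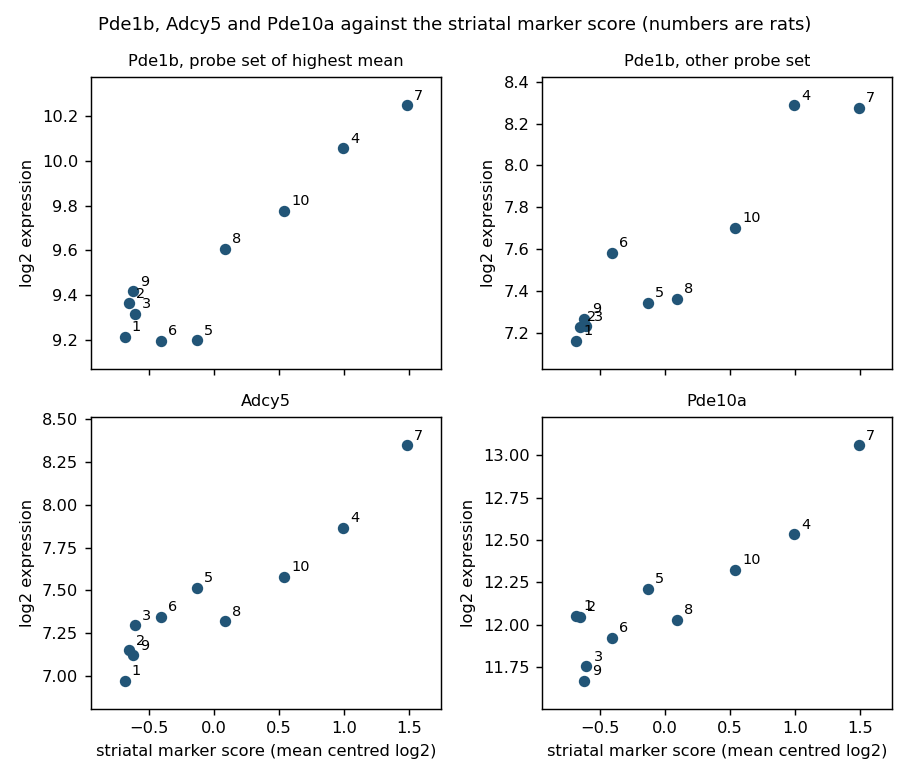
Log2 expression of the 2 Pde1b probe sets, Adcy5 and Pde10a (y axes) is plotted against the striatal marker score of each rat (x axis), with rats numbered. Rats 7, 4 and 10, with scores of 1.49, 0.99 and 0.54, hold the 3 highest values in all 4 panels.

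The rest of the set did not pass. For the striatal score 1 of 24 genes (4.17%) was past the threshold, against 2.03% of all 15510 probe sets and 1.23% of 8473 genes with 1 probe set each. At an unadjusted p under 0.05 there were 4 of 24 (16.7%), Pde1b, Pde6d, Adcy9 and Adcy3, against 14.9% of probe sets. The median slope of the 24 was 0.0011, against 0.010 for all genes, and 12 (50%) were positive, against 59.6% of all genes. Pde6d had a slope of 0.11 ± 0.03 (limma adjusted p = 0.130) and Adcy3 0.08 ± 0.03 (limma adjusted p = 0.285), which was 0.020 without rat 7. Adcy9 had -0.58 ± 0.23 (limma adjusted p = 0.270), the lowest slope of all 8473 genes, and -0.27 without rat 7. By p this gene, which has 1 probe set on the array, ranked at place 728. Here and below, a slope with rats left out is per SD of the score in the rats left. Its size is therefore not directly comparable with the main slope. The PKA genes had slopes of -0.05 to 0.05. Of 11 further probe sets of these genes that passed the filter, all 11 had the sign of the main one. With the other scores between 6 (plus maze) and 10 (myelin score) of the 11 did. The main Prkar1a slope was near 0, at -1.7e-05, so its sign says little.

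The slope of Pde1b was also fitted without the 3 rats with the highest scores. Without rats 4, 7 and 10 it was 0.06 ± 0.06, against 0.13 ± 0.05 for Adcy5, 0.09 ± 0.07 for Pde10a and 0.11 ± 0.07 for Gnal (limma adjusted p = 0.987 for each, n = 7). These slopes are per SD of the score in the 7 rats left, a smaller unit than with all rats. Their sizes cannot be compared directly with the main slopes. How far the slope of Pde1b rested on those 3 rats was not tested, because leaving them out also narrows the range of the score. With all rats and the myelin score as a covariate the slope of Pde1b was 0.45 ± 0.07 (limma adjusted p = 0.268), against 0.42 ± 0.08 for Adcy5, 0.37 ± 0.10 for Pde10a and 0.32 ± 0.10 for Gnal (limma adjusted p = 0.561, 0.609 and 0.733). In both settings 0% of the 15510 probe sets passed.

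**Figure D3:**
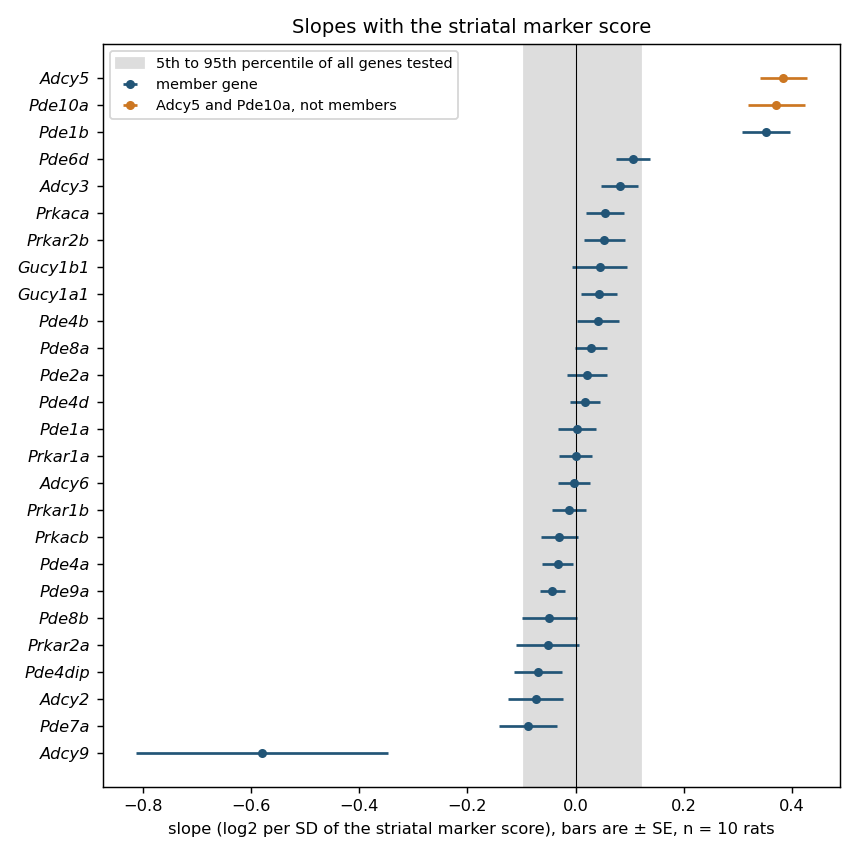
Points are slopes in log2 per SD of the striatal marker score and bars are ± SE over 10 rats; the grey band spans the 5th to the 95th percentile of all genes tested, from -0.09 to 0.12. Pde1b at 0.35 lies beside Adcy5 and Pde10a at the top, Adcy9 lies at -0.58, and the other 22 genes of the set lie within the band.

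Myelin genes varied across the same rats, with list scores of -0.58 in rat 3 to 0.46 in rat 7. None of the 24 genes passed the test with this score, against 1.89% of 15499 probe sets, and at an unadjusted p under 0.05 there were 3 (12.5%), against 16% of probe sets. These were Adcy9 at -0.65 ± 0.22 log2 per SD (limma adjusted p = 0.168), Pde1b at 0.25 ± 0.09 (limma adjusted p = 0.194) and Pde6d at 0.09 ± 0.04 (limma adjusted p = 0.292). The slope of Adcy9 was -0.37 without rat 3, and that of Pde1b was 0.16 without rat 7. The other Pde1b probe set passed, at 0.35 ± 0.07 (limma adjusted p = 0.0429). The slope of the main Pde1b probe set was -0.12 ± 0.07 with the striatal score as a covariate. Adcy3, Pde7a and Pde4a, next by p, had slopes of 0.08 ± 0.03, -0.10 ± 0.05 and -0.05 ± 0.03. Of the other pathway genes Akap9, an anchoring protein of PKA at the centrosome and Golgi, fell with the myelin score, with a slope of -0.25 ± 0.05 (limma adjusted p = 0.0295). With the striatal score as a covariate, and without rats 4, 7 and 10, 0% of the 15499 probe sets passed, Akap9 (-0.29 ± 0.09 and -0.23 ± 0.05) and the other Pde1b probe set (0.080 ± 0.088 and 0.10 ± 0.04) included. Without rat 7 the limma adjusted p was 0.104 for Akap9 and 0.157 for that probe set.

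Meningeal and fibroblast markers had scores of -0.74 in rat 8 to 1.16 in rat 9. By limma 0 of the 24 genes passed, and 0 had an unadjusted p under 0.05, against 0.0709% and 3.61% of 15509 probe sets. Gucy1a1 had a slope of 0.06 ± 0.03 and Pde8a of -0.06 ± 0.03, the smallest p in each direction (limma unadjusted p = 0.0777 and 0.0576). Prkar2a, Adcy9, Adcy6 and Pde4d followed, with slopes of 0.06 ± 0.06, 0.25 ± 0.29, -0.03 ± 0.03 and -0.02 ± 0.03. The other probe sets of Gucy1a1 and Prkar2a that passed the filter had the opposite sign, at -0.03 ± 0.05 and -0.06 ± 0.05. That of Pde4d had the same sign, at -0.01 ± 0.03.

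Partners in the pathway were compared across rats in 6 pairs, with two-sided permutation tests adjusted over the 6. Pde1b and Ppp1r1b, which encodes DARPP-32, a target of PKA in striatal neurons, had a Pearson r of 0.93 (permutation p = 0.00088, 0.00528 after adjustment) and a Spearman rho of 0.70 (permutation p = 0.0309, 0.0927 after adjustment). Ppp1r1b is also part of the striatal score, so this pair is not separate from the result with that score. Pde1b and Adcy5 had a Pearson r of 0.85 (permutation p = 0.00488, 0.0146 after adjustment) and a Spearman rho of 0.53 (permutation p = 0.122, 0.147 after adjustment), and Pde1b and Pde10a a Pearson r of 0.82 (permutation p = 0.00804, 0.0161 after adjustment) and a Spearman rho of 0.54 (permutation p = 0.116, 0.147 after adjustment). Without rats 4 and 7, the farthest from the Pde1b median, the r of Pde1b was 0.40 with Adcy5 and 0.33 with Pde10a (both with an adjusted exact permutation p of 0.432). That with Ppp1r1b was 0.71 (exact permutation p = 0.0755, 0.352 after adjustment). None of these was past the threshold with 8 rats. Leaving out those rats also narrows the range of Pde1b and can lower r, so how far the relations rested on them was not tested. After quantile normalization the rho of Pde1b passed with Adcy5 (0.76) and with Ppp1r1b (0.77), each with an adjusted permutation p of 0.0443, and that with Pde10a was 0.60 (0.112 after adjustment).

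Among the PKA subunits, Prkaca and Prkar1b had a Pearson r of 0.72 (permutation p = 0.0135, 0.0202 after adjustment) and a Spearman rho of 0.72 (permutation p = 0.0233, 0.0927 after adjustment). Prkacb and Prkar2b had a Pearson r of 0.70 (permutation p = 0.0302, 0.0362 after adjustment) and a Spearman rho of 0.62 (permutation p = 0.0605, 0.121 after adjustment). Without the 2 rats farthest from the median of the catalytic subunit gene, r was 0.61 for Prkaca and Prkar1b (rats 1 and 10). For Prkacb and Prkar2b it was 0.35 (rats 2 and 10), and neither was past the threshold with 8 rats. How far these relations rested on those rats was not tested, because leaving them out also narrows the range. After quantile normalization r was 0.83 for Prkaca and Prkar1b (permutation p = 0.00724, 0.0109 after adjustment) and 0.41 for Prkacb and Prkar2b (permutation p = 0.244, 0.244 after adjustment). Gucy1a1 and Gucy1b1, whose products form 1 enzyme, had a Pearson r of 0.48 (permutation p = 0.162, 0.162 after adjustment), a Spearman rho of 0.42 (permutation p = 0.235, 0.235 after adjustment) and r = 0.54 without rats 6 and 8.

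The behaviour comparisons asked which of these genes vary with each score. By limma 0 of the 24 genes passed for any of the 5 scores, nor did any of the 15521 probe sets (0% for each score). The median slopes of the 24 genes were -0.018 with startle, 0.0036 with locomotion, 0.015 with sugar feeding, -0.015 with prepulse inhibition and -0.027 with the plus maze. Those of all genes were -0.0097, 0.012, 0.010, -0.0063 and -0.022. After quantile normalization the medians of the 24 turned to 0.014 with startle and -0.015 with locomotion. With startle 15 of 24 slopes were then positive, against 8 (33.3%) in the values as deposited, where 41.3% of all genes were positive. The share of all genes after quantile normalization is not given here, so the turn is not read as particular to the set. The genes named below are those of smallest p in each direction.

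**Figure D4:**
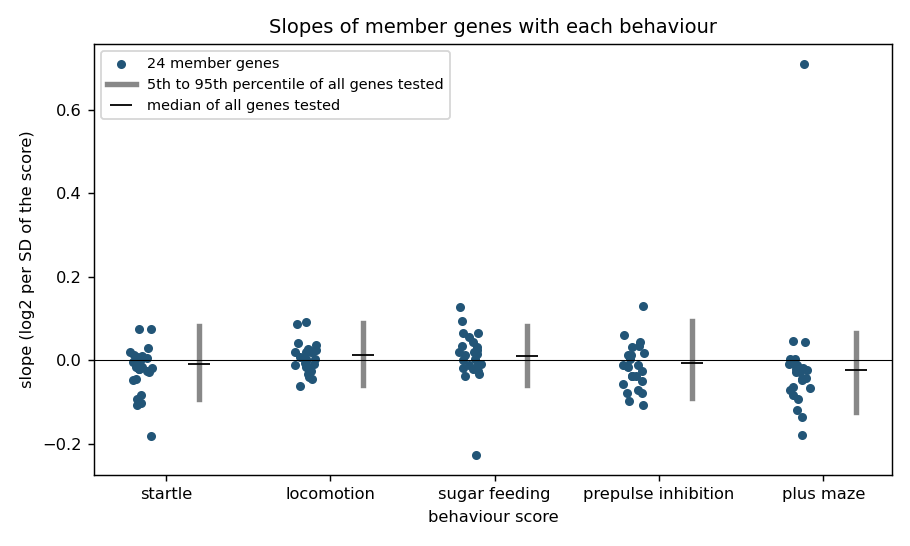
Points are slopes of the 24 genes in log2 per SD of each behaviour score; grey bars span the 5th to the 95th percentile of all 8483 genes tested and black ticks their medians. Between 21 and 22 of the 24 points lie within the bar for each score, and Adcy9 at 0.71 with the plus maze lies farthest outside.

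For startle 1 of 24 genes had an unadjusted p under 0.05 (4.17%), against 5.59% of 15521 probe sets. That was Pde4dip, with a slope of -0.09 ± 0.04 (SE, n = 10; limma unadjusted p = 0.0451, adjusted p = 0.808), which was -0.060 without rat 2. Pde7a and Prkar2a had -0.11 ± 0.05 and -0.10 ± 0.05. The other probe sets of Prkar2a and Pde4dip had 0.007 ± 0.058 and -0.062 ± 0.064. On the positive side Adcy3 had 0.08 ± 0.03, Pde4a 0.02 ± 0.03 and Pde1b 0.08 ± 0.12, and that of Pde1b was -0.03 ± 0.05 with the striatal score as a covariate.

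For locomotion 0 of 24 genes had an unadjusted p under 0.05, against 2.93% of probe sets. Prkar2a had 0.09 ± 0.05, Gucy1a1 0.04 ± 0.03 and Pde1b 0.09 ± 0.12. Pde4a, Prkaca and Pde8b had -0.04 ± 0.03, -0.03 ± 0.04 and -0.04 ± 0.05. The Prkar2a slope was not shared by its other probe set, at -0.05 ± 0.06.

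For sugar feeding 1 of 24 genes had an unadjusted p under 0.05 (4.17%), against 2.13% of probe sets. Gucy1a1 had 0.07 ± 0.03 (limma unadjusted p = 0.0481, adjusted p = 1.00), Pde2a 0.07 ± 0.03 and Prkar2a 0.09 ± 0.05, with its other probe set at -0.06 ± 0.05. Negative slopes were those of Pde9a (-0.04 ± 0.02), Pde4b (-0.03 ± 0.04) and Adcy9 (-0.23 ± 0.29).

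For prepulse inhibition 3 of 24 genes had an unadjusted p under 0.05 (12.5%), against 7.41% of probe sets. Prkacb, with 2 further probe sets at -0.08 ± 0.12 and -0.08 ± 0.05, had -0.08 ± 0.03 (limma unadjusted p = 0.0157, adjusted p = 0.630), Adcy2 -0.11 ± 0.04 (limma unadjusted p = 0.0360, adjusted p = 0.650) and Pde2a -0.07 ± 0.03 (limma unadjusted p = 0.0398, adjusted p = 0.662). These 3 slopes stayed negative with each of the 10 rats left out in turn. So did slopes of larger p, among them that of Pde1a (-0.03 ± 0.03, limma unadjusted p = 0.483). Without rat 2 the slope of Adcy2 was -0.062. Pde6d, Pde1b and Pde4b had 0.06 ± 0.04, 0.13 ± 0.11 and 0.04 ± 0.04, and that of Pde1b was -0.03 ± 0.05 with the striatal score as a covariate.

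For the plus maze, scored in 7 rats, 2 of 24 genes had an unadjusted p under 0.05 (8.33%), against 6.95% of probe sets. Adcy9 had the highest slope of all 8483 genes, 0.71 ± 0.21 log2 per SD (limma unadjusted p = 0.0118, adjusted p = 0.652). By p it ranked at place 163, and it had the largest SD of the set (0.96). It was at 6.11 in rat 5, which had the highest plus maze score at 60.3, and at 3.11 to 5.02 in the other 6 rats, whose scores were 0 to 20.2. Without rat 5 the slope was 0.20 ± 0.25 (limma unadjusted p = 0.450). Slopes without rat 5 are per SD of the score in the 6 rats left, a smaller unit than with all 7. Their sizes cannot be compared directly with the main slopes. Rat 3, which had the highest Adcy9 value of all, has no plus maze score. Gucy1b1 had -0.12 ± 0.04 (limma unadjusted p = 0.0275, adjusted p = 0.682), and its other probe set -0.14 ± 0.04, and without rat 5 the main slope was -0.029 ± 0.051. Prkar2b had -0.09 ± 0.04. Prkar2a had -0.14 ± 0.07, with 0.064 ± 0.068 without rat 5 and 0.03 ± 0.05 in its other probe set. Pde9a and Pde8b had 0.04 ± 0.03 and 0.05 ± 0.05.

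**Figure D5:**
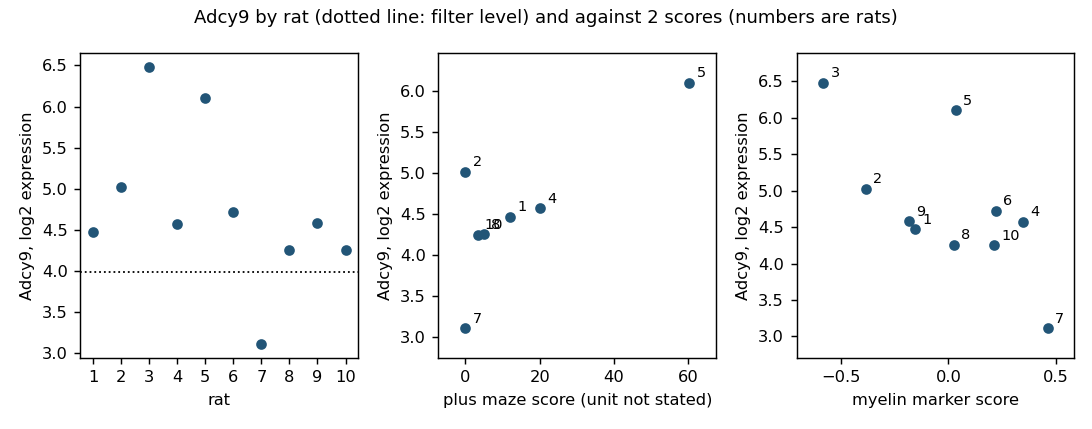
Adcy9 log2 expression (y axes) by rat, with the filter level of 3.99 as a dotted line, then against the plus maze score of 7 rats and against the myelin marker score of 10 rats, with rats numbered. Rats 3 and 5 lie above 6 and rat 7 at 3.11, and in the middle panel rat 5 alone has a score above 20.2.

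The 27 other genes of the pathway that passed the filter also gave no call with a behaviour (0% of probe sets for each score). At an unadjusted p under 0.05 there was 1 with startle, 0 with locomotion, 1 with sugar feeding, 0 with prepulse inhibition and 4 with the plus maze, against 5.59%, 2.93%, 2.13%, 7.41% and 6.95% of probe sets. These were Akap7 (-0.09 ± 0.03) with startle and Akap5 (0.09 ± 0.04) with sugar feeding, both anchoring protein genes. With the plus maze they were the CREB family factor Atf1 (-0.18 ± 0.05), the PKA inhibitor gene Pkig (-0.13 ± 0.05) and the anchoring protein genes Akap11 (-0.07 ± 0.03) and Akap12 (-0.21 ± 0.06). These 6 were named after their values were seen, and none passed after adjustment (limma adjusted p of 0.652 or more).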

How the data were processed

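The data were 10 arrays, 1 per rat. The authors deposited log2 values, 1 per probe set and array, for which the submitters' processing notes name GCRMA and R 2.6.2, and no GCRMA version is given in the sources used here. GCRMA corrects background by probe sequence and normalizes between arrays, and array medians were 3.91 to 4.02. With 10 arrays, few samples bear on each slope.

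Gene symbols came from the platform annotation, which can be old. The 57 control probe sets were left out, and of 31042 others 50% (15521), those of highest mean, were kept. Log2 values were fitted on each score, scaled to an SD of 1, with limma 3.58.1 in R 4.3.3 (lmFit, eBayes), two-sided, with Benjamini-Hochberg adjustment over all probe sets kept, without those of the list where the score was a marker list's. The threshold was 0.05. Where rats were left out, the score was scaled anew to an SD of 1 in the rats left, so the unit of the slope changed. The fit was tested on simulated data. Pairs of genes used permutation tests of 1e+05 resamples, exact for 8 rats.

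Named genes were, per fit, those past the threshold, otherwise the 3 of smallest p in each direction; the genes of largest and smallest SD; and a fixed panel of subunit genes. The members, lists and tests were chosen with earlier results of these data known.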

Additional observations from a re-analysis of the deposited data

Results flagged for a closer look

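Of 26 genes examined over the 10 rats (the 24 that passed the filter, Adcy5 and Pde10a), 2 had a rat far from the others. Of all 8483 genes that passed the filter 14% did, and chance gives about 1 in 20. For Adcy6, rat 2 was highest at 7.26 log2, the next rat at 7.09 and the lowest at 6.96, so that the gap made up 0.557 of the whole range. For Pde9a, rat 7 was lowest at 7.56 log2, the next rat at 7.69 and the highest at 7.79, and the gap made up 0.555 of the range. Both exceed the critical ratio of Dixon's test. Rat 2 also held the highest value in 20.9% of all genes that passed the filter, and rat 7 had the highest striatal score; their part in these 2 values was not tested.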

How the results depend on the processing

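No paired analysis was possible because 1 array came from each animal and all belong to 1 group. With the 5 behaviours and the myelin and meningeal scores, 0 genes of the set passed (of 24, or of 45 without the filter) under every alternative run: no filter, quantile normalization, median centring, means over probe sets, trend and robust options, the unmoderated Pearson test, ranks, each rat left out, rats 4, 7 and 10 left out, the scores from medians, and, except for the meningeal score, other scores as covariates. Of all probe sets at most 1 passed with a behaviour, 0 to 500 with the myelin score and 1 to 15 with the meningeal score. With the striatal score the count of 1, Pde1b, was 0 without rats 4, 7 and 10 and 0 with the myelin covariate. In both of these settings 0% of all probe sets passed. The count was 1 with each rat left out (slope 0.26 to 0.38 log2 per SD of the score in the rats left). The causes of these and the following changes were not tested.

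Without the 2 farthest rats (8 rats left) r was 0.35 for Prkacb and Prkar2b, 0.61 for Prkaca and Prkar1b, 0.33 for Pde1b and Pde10a, 0.40 for Pde1b and Adcy5, and 0.71 for Pde1b and Ppp1r1b, none past the threshold. After quantile normalization r was 0.41 for Prkacb and Prkar2b, and the 4 other pairs kept the call, with r of 0.83 to 0.92.

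Some slopes not past the threshold changed sign. With each rat left out, Pde1b ran from -0.041 to 0.14 with startle and from -0.037 to 0.18 with locomotion, Prkaca from -0.072 to 0.0057 with locomotion, Adcy9 from -0.51 to 0.083 with sugar feeding and from -0.078 to 0.44 with the meningeal score, Prkar2a from -0.17 to 0.064 with the plus maze, and Pde4d from -0.044 to 0.0020 with the meningeal score. Without rats 4, 7 and 10, Pde1b was at -0.0046 with startle, -0.060 with locomotion and -0.018 with the myelin score, and Adcy9 at 0.076 with sugar feeding. With the striatal covariate Pde1b was at -0.031 with startle, -0.026 with prepulse inhibition and -0.12 with the myelin score, and Pde6d at -0.0069 with the myelin score. With the 4 scores in 1 model Pde1b was at -0.072 with startle and -0.14 with locomotion, Pde4a at -0.0048 with startle and Pde4b at 0.028 with sugar feeding. Median slopes, an alternative added after the data were seen, were 0.014 with startle and -0.015 with locomotion after quantile normalization, -0.044 and -0.030 in the model of 4 scores, and 0.0028 with the plus maze without a filter.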
